A study of Mus musculus with 2 samples.

Results

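Classical monocytes were examined in the inflamed temporomandibular joint (TMJ), the joint between the jaw and the skull, by single-cell RNA sequencing. Of 10109 cells kept from 2 libraries, 166 were classical monocytes, 79 of 4352 in the wild-type (WT) library and 87 of 5757 in the mutant library. A cell was counted as a classical monocyte from its own transcripts. Each transcript is counted once through a molecular tag, the UMI. The cell had at least 2 UMIs of Ccr2, at least 2 of Chil3 and Vcan together, at least 1 of Csf1r, at most 2 of C1qa, C1qb and C1qc together, under 20 of Elane, Mpo and Prtn3 together and under 10 of Mmp12. These values chose the cells, so they are given as a description and carry no test. Csf1r and Ccr2 mark the lineage, the C1q genes and Mmp12 set macrophages aside, and Elane, Mpo and Prtn3 set myeloid progenitors aside.

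The WT library came from WT mice and the mutant library from Prox1 mutant mice, which the study's methods give as Prox1+/-, heterozygous for Prox1, the transcription factor that sets lymphatic endothelial identity. The mutant mice served in the study as a genetic model of lymphatic deficiency. Strain and age were the same in the labels of both groups, C57BL/6 mice of 8 to 10 weeks, and both groups had been given complete Freund's adjuvant (CFA), an oil with killed mycobacteria that inflames the joint. Each condition was 1 library, with no replicate, so no difference between WT and mutant could be tested, and genotype and library cannot be told apart. All intervals are 95% intervals for counting error only.

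Classical monocytes leave the bone marrow through Ccr2, the receptor for the chemokine Ccl2, and enter inflamed tissue from the blood. There they may remain monocytes, or switch off Ly6c2 and take on macrophage or antigen-presenting programmes, among them the MHC class II molecules that show peptides to CD4 T cells. In the mouse they are known by high Ly6C at the surface and by transcripts for the chitinase-like protein Chil3, the proteoglycan Vcan and the coagulation subunit F13a1.

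The monocytes held 1231700 UMIs in WT and 1630909 in mutant. A WT monocyte had 4591 to 56725 UMIs, with a median of 12976 and a median of 3697 genes. A mutant monocyte had 2073 to 52528 UMIs, with a median of 15567 and a median of 3817 genes. Depth was close, and mitochondrial UMIs took a median 2.10% in WT and 1.60% in mutant. The libraries shared 10 cell barcodes, which 0 WT and 1 mutant monocyte carried. Prox1 had 0 UMIs in the monocytes of either library, so the mutation could not be checked in these cells.

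Most monocytes lay well inside the limits. The median monocyte had 10 Ccr2 UMIs in WT and 8 in mutant, and 48 and 26 UMIs of Chil3 and Vcan together. Just inside the Ccr2 limit, at 2 UMIs, were 5 WT and 8 mutant cells. Just outside it, at 1 UMI with every other term met, were 4 and 17. For Chil3 and Vcan, 1 and 5 cells stood at 2 UMIs and 6 and 13 at 1 UMI. At 1 Csf1r UMI were 15 and 14 monocytes, and at 0, with every other term met, 9 and 11 cells. At 2 UMIs of the C1q genes were 4 and 3 monocytes, and at 3 UMIs 2 and 1 cells. The limits on progenitor genes and Mmp12 set aside a further 19 and 7 cells and 2 and 2 cells that met the other terms.

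Some genes that the rule did not use fitted the label, and others did not set the cells apart. Ly6c2 (ENSMUSG00000022584), which encodes the Ly6C antigen of these cells, stood at 1515 CPM (UMIs per 1000000 UMIs of the summed monocytes) in WT and 1650 in mutant. After each cell was thinned to 5000 UMIs, 98.7% of 77 WT and 96.3% of 81 mutant monocytes had a Ly6c2 UMI. In endothelial cells, which should lack it, the shares were 1.90% and 3.95%. Ly6c2 alone does not set monocytes apart from other myeloid cells, since 78.8% and 82.7% of thinned neutrophils had a UMI and progenitors stood at 1206 and 1491 CPM. Before thinning the median endothelial cell held 4326 UMIs in WT and 5218 in mutant. Ms4a4c, a membrane protein gene of Ly6C-high monocytes, was found in 74.0% and 77.8% of thinned monocytes, against 0.211% and 0.987% of endothelial cells and 2.35% and 3.55% of neutrophils. F13a1 stood at 2083 and 1692 CPM, against 1318 and 1084 CPM in progenitors and 168 and 172 CPM in all other kept cells. Fn1, which encodes fibronectin, did not set monocytes apart, at 1482 and 1797 CPM against 1685 and 1434 CPM in all other kept cells. Of the 14 classical monocyte genes, 7 were at least 2-fold higher in both libraries than in progenitors. Against Mmp12-high macrophages 7 were higher and 1 lower, and against C1q-high macrophages 6 were higher. Over all genes compared the higher shares were 9.74%, 7.79% and 2.13%. Lyz2 stood at 12674 and 8550 CPM, against 30308 and 17404 CPM in Mmp12-high macrophages. Ifitm6 stood at 356 and 288 CPM, against 1517 and 1310 CPM in neutrophils. The shares of Ly6c2 and Ms4a4c were thus far above those in endothelial cells of the same libraries. Those endothelial cells were chosen to have no Ptprc or Csf1r UMI, so this contrast is a description. In C1q-high macrophages, a nearer population, Ms4a4c stood at 135 and 115 CPM, against 356 and 330 CPM in the monocytes.

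**Figure D1:**
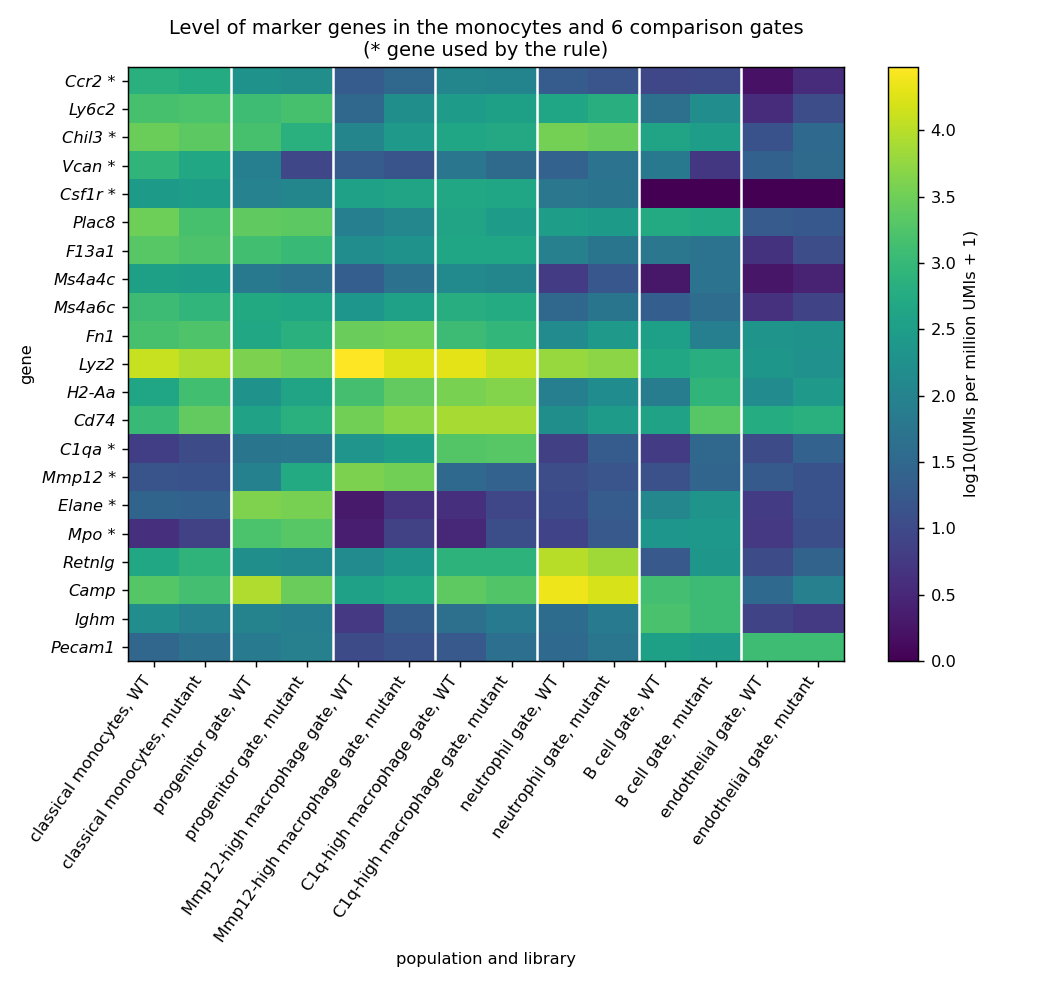
Each row of the heatmap is a marker gene and each column the monocytes or a comparison population in WT or mutant, coloured by log10 of CPM plus 1, with an asterisk on genes that the rule used. Ly6c2, at 1515 and 1650 CPM in the monocytes, F13a1 and Ms4a4c are brighter in the 2 columns on the left than in the endothelial columns.

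Over all other kept cells of the same libraries, the genes furthest above in both were led by Ccr2, a gene of the rule, and then by Arhgef37, Ms4a8a, F13a1, Gpr141, Nrg1, Trim30c, Ms4a4c, AI839979 and Clec2i. Arhgef37, a guanine nucleotide exchange factor gene, stood at 105 CPM in WT and 108 in mutant monocytes, against 9.50 and 8.10 CPM in other cells. Nrg1, which encodes the growth factor neuregulin 1, stood at 1129 and 1009 CPM, against 135 and 122 CPM. Gpr141, an orphan receptor gene, stood at 520 and 516 CPM, against 46.4 and 61.8 CPM. These rankings describe cells chosen on the same measurements and are no test.

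Markers of other cell types were present unevenly. The 10 neutrophil genes summed to 16472 CPM in WT and 23868 CPM in mutant monocytes, with S100a9 the most abundant at 5736 and 10338 CPM. The 7 erythroid genes summed to 8842 and 12077 CPM, led by the haemoglobin gene Hbb-bs at 5269 and 7197 CPM. The 5 fibroblast genes summed to 1521 and 170 CPM, led by Dcn in WT and Col1a1 in mutant. B cell markers summed to 185 and 158 CPM, with Ighm the most abundant and 1 of 6 genes at 0 in each library. T and NK cell markers summed to 64.1 and 87.1 CPM with 2 of 9 at 0, and conventional dendritic cell markers to 34.1 and 29.4 CPM with 1 of 8 at 0. The marker sums of plasmacytoid dendritic cells were 559 and 497 CPM, with Tcf4 the most abundant at 263 and 270 CPM, those of resident-type macrophages 158 and 143 CPM, mostly Selenop, those of osteoclasts 67.4 and 81.5 CPM and those of endothelial cells 65.8 and 69.9 CPM. Platelet markers, at 3.25 and 6.13 CPM, and mast cell and basophil markers, at 2.44 and 3.68 CPM, were almost absent. Most of the neutrophil, erythroid and fibroblast signal sat in few cells. A monocyte was called mixed when it carried at least 10 UMIs of the markers of fibroblasts, B cells, T and NK cells, erythroid cells, endothelial cells or plasmacytoid dendritic cells, or at least 20 UMIs of the neutrophil granule genes Retnlg, Ngp, Camp and Ltf. Haemoglobin genes, Ighm, Bst2 and Tcf4 were left out of these sums. There were 12 such cells in WT and 22 in mutant, and without them the neutrophil sum was 2025 and 1723 CPM, the erythroid sum 239 and 1633 CPM and the fibroblast sum 74.1 and 57.0 CPM. Whether they were doublets was not tested. The doublet caller Scrublet at its automatic threshold called 1 cell in WT and 0 in mutant and had not worked, so no cell was removed as a doublet.

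Classical monocytes made up 1.82% of kept cells in WT (exact interval 1.44 to 2.26) and 1.51% in mutant (1.21 to 1.86). The difference of -0.30 percentage points had an interval of -0.83 to 0.19, which holds 0. Of cells with a UMI of the leukocyte gene Ptprc, 5.43% of 1456 in WT and 3.07% of 2803 in mutant were classical monocytes, and this difference of -2.36 points had an interval of -3.77 to -1.09. Of cells with a Csf1r UMI the shares were 9.10% and 6.64%, a difference of -2.47 points (-4.89 to -0.18). The direction depended on what the monocytes were counted against. Cells with a Ptprc UMI were 1456 of 4352 kept cells in WT and 2803 of 5757 in mutant, and they were taken without thinning, at a median depth of 6997 and 4848 UMIs for all kept cells, so their share is not a measure of leukocytes at equal depth. Per 100 cells of other populations, monocytes numbered 113 and 143 against progenitors, 35.9 and 50.3 against Mmp12-high macrophages and 69.3 and 107 against B cells, but 29.8 and 25.1 against C1q-high macrophages and 51.0 and 32.1 against neutrophils. When every cell was thinned to 5000 UMIs before the rule was applied, 48 of 2665 WT and 37 of 2818 mutant cells qualified, a difference of -0.49 points (-1.17 to 0.17). With 1 library a condition, the spread of these shares between mice is unknown.

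Expression was then compared between mutant and WT monocytes over 4571 genes with at least 100 UMIs across both. At least 2-fold higher in mutant were 213 genes, 4.66% of those compared, and at least 2-fold lower were 116, or 2.54%. The median gene lay at a log2 ratio of 0.13 in favour of mutant, and with that shift set to 0 the counts were 139 higher and 175 lower, so the balance between them depended on the scaling. Of the 4571 genes 2769 had a ratio above 0. Lists of genes are therefore read beside 0.13 and beside those 2 percentages, and a value in brackets after a pair of CPM is the log2 ratio of mutant to WT, with its interval where given. Each list below was compared as a whole, with all of its members that reached 100 UMIs, and its members were chosen with earlier results of these data known. Without the mixed cells 186 genes were higher and 70 lower, and 117 and 49 of these were among the first calls. Without the C1q limit 62 of the 213 higher and 70 of the 116 lower calls were shared, and outside the class II, cycling and granule groups 36 and 29, where fewer cells and so fewer genes entered.

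**Figure D2:**
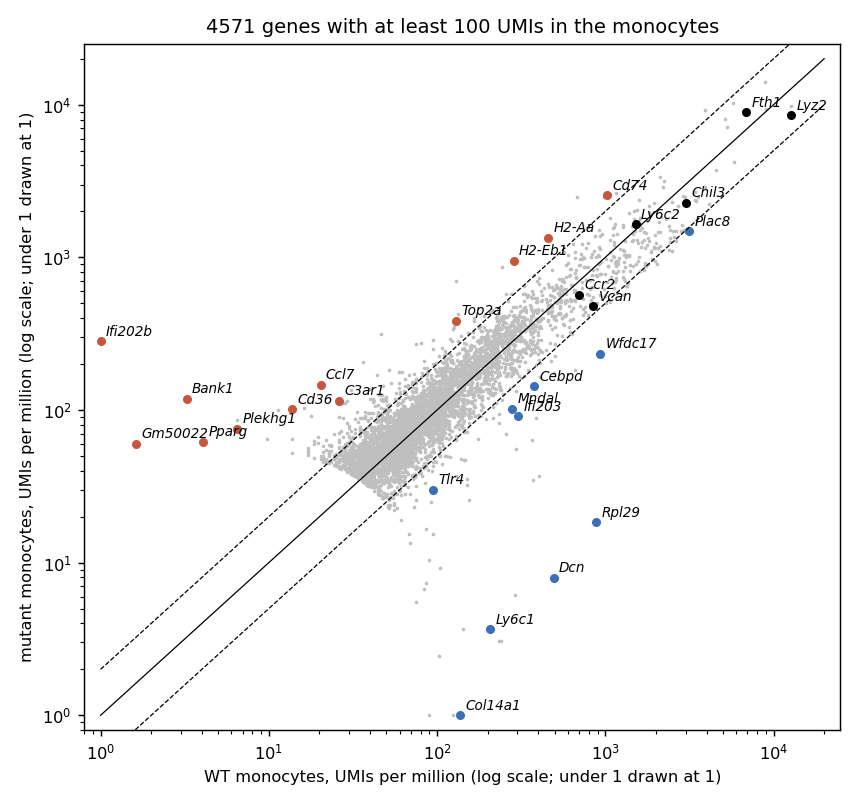
Each point is a gene of the summed monocytes, with WT CPM on the x axis and mutant CPM on the y axis, both on a log scale, and dashed lines at a 2-fold difference. Most genes follow the diagonal, with Ifi202b at the left edge since it had 0 UMIs in WT, and Rpl29 and Ly6c1 far below the lines.

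Most genes of MHC class II presentation stood higher in mutant monocytes. Of 7 genes 6 were compared, 4 were at least 2-fold higher and 0 lower, and their median log2 ratio was 1.44. The ratio was above 0 for 5 of the 6, and H2-DMa, a peptide-loading chain, stood at 129 and 110 CPM (-0.19). H2-Aa (ENSMUSG00000036594), the alpha chain of I-A, was at 456 CPM in WT and 1348 CPM in mutant, a log2 ratio of 1.56 (1.43 to 1.70). H2-Ab1, its beta chain, went from 244 to 866 CPM (1.82) and H2-Eb1, the I-E beta chain, from 285 to 952 CPM (1.74). Cd74, the invariant chain that escorts class II molecules, went from 1028 to 2549 CPM (1.31). Ciita, the master regulator of these genes, had 13 UMIs in WT and 69 in mutant and fell short of the 100 UMIs. In all other kept cells the list's median ratio was 0.45, so class II transcripts were higher in the mutant library outside the monocytes as well. After thinning, an H2-Aa UMI was found in 19.5% of WT and 53.1% of mutant monocytes, and in neutrophils, which carry little class II, in 9.41% and 25.9%. The median neutrophil held 5697 and 7869 UMIs before thinning. In endothelial cells, which can express class II, the shares were 33.2% and 42.8%, above the WT monocytes. The share was higher in mutant in all 3 cell types. The part of free RNA in the ratio was not tested. The size depended on the rule, since without the C1q limit 113 WT and 135 mutant cells qualified and the H2-Aa ratio was 0.66, and with a Ccr2 limit of 1 UMI it was 0.88.

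The class II genes share promoter elements, of which the Y box, bound by the factor NF-Y, holds the letters CTGATTGG in the H2-Aa and H2-Eb1 promoters. The 150 bases before the RefSeq start (GRCm38.p6) of H2-Aa and H2-Eb1 are shown with those letters in capitals. Of the 4 higher class II genes, these had a promoter window among those searched. They lie at chr17:34287824-34287973 on the minus strand for H2-Aa and chr17:34305717-34305866 on the plus strand for H2-Eb1. Counted back from the start, the letters begin at position -51 and -62. They are not in the windows of H2-DMa and H2-DMb1, and those of H2-Ab1, Cd74 and Ciita were not analysed here.
H2-Aa: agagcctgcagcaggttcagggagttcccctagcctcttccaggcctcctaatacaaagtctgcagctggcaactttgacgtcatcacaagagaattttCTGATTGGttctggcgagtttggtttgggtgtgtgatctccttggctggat
H2-Eb1: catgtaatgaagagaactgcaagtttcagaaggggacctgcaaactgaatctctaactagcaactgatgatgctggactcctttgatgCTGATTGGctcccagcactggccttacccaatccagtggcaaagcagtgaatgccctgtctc
On either strand these letters occur in 1258 of 32851 promoter windows, or 3.83%. The match is a description of sequence and was not linked to the expression values.

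Class II transcripts were spread unevenly over the monocytes. The sum of H2-Aa, H2-Ab1 and H2-Eb1 ran from 0 to 314 UMIs a cell in WT, with a median of 0 and 48 of 79 cells at 0. In mutant it ran from 0 to 517 UMIs with a median of 3 and 15 of 87 cells at 0. At least 20 UMIs, a limit chosen after the values were seen, were found in 9 WT monocytes, 11.4% (5.34 to 20.5), and 32 mutant monocytes, 36.8% (26.7 to 47.8). The difference of 25.4 points had an interval of 12.5 to 37.1, and few cells lay near the limit, with 1 and 3 between 10 and 20 UMIs and 2 and 2 between 20 and 40. Thinned to 5000 UMIs, with a limit of 5, the counts were 7 of 77 and 32 of 81, a difference of 30.4 points (17.3 to 42.2). The ranges of the libraries overlapped, and the libraries differed both in how many cells stood high and in how many stood at 0. Among the monocytes in none of the class II, cycling or granule groups, 15.4% in WT and 52.9% in mutant had an H2-Aa UMI, counted without thinning.

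**Figure D3:**
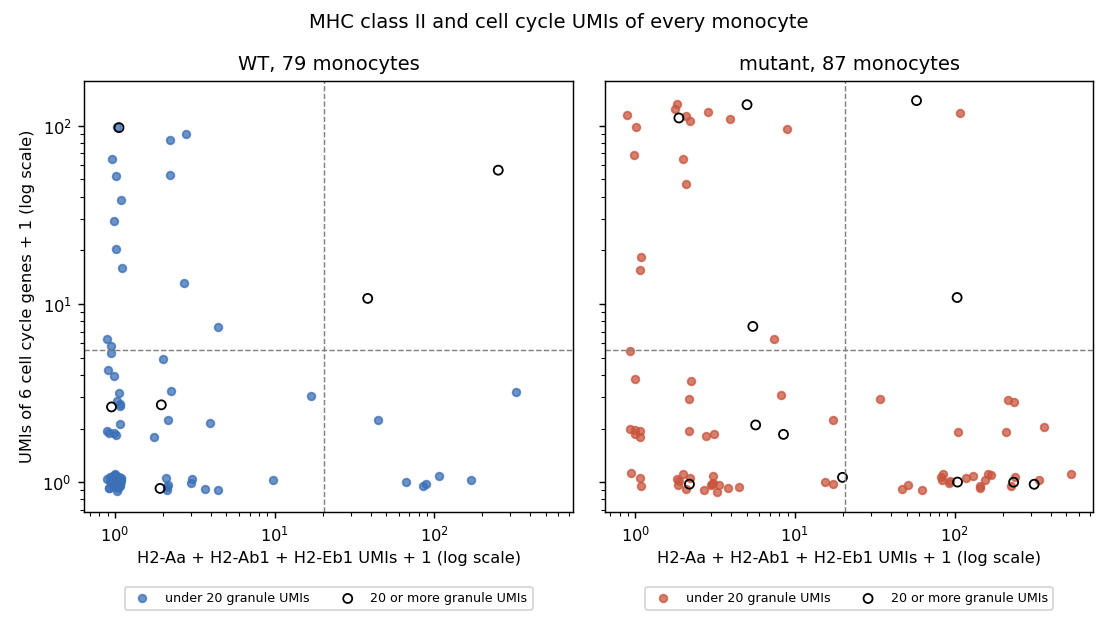
Each point is a monocyte, placed by its summed H2-Aa, H2-Ab1 and H2-Eb1 UMIs on the x axis and its summed UMIs of 6 cell cycle genes on the y axis, both plus 1 and on a log scale with a small sideways and vertical jitter. Dashed lines mark the limits of 20 and 5 UMIs and open circles are cells with 20 or more granule UMIs. To the right of the class II limit are 9 of 79 WT and 32 of 87 mutant monocytes.

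The class II-high cells differed from the others in some monocyte genes and not in all. The 7 WT and 26 mutant class II-high monocytes free of granule transcripts were set beside the 52 and 34 monocytes in none of the class II, cycling or granule groups. F13a1 stood at 368 CPM in the class II-high cells of WT and 886 CPM in those of mutant, against 2722 and 2199 CPM. Of the genes that the rule used, given as a description, Ccr2 was at 347 and 546 CPM, against 909 and 817 CPM, and Vcan at 214 and 269 CPM, against 1159 and 788 CPM. Fn1 was higher in the class II-high cells of WT and lower in those of mutant, at 2875 and 1602 CPM, against 1280 and 1962 CPM. Going the other way, Apoe, the lipid carrier of maturing macrophages, was at 1455 and 2021 CPM, against 466 and 540 CPM. Ly6i, a relative of Ly6c2, was at 327 and 602 CPM, against 35.7 and 142 CPM. The direction of F13a1, Apoe and Ly6i was the same in both libraries. The 7 WT cells differed widely in depth, from 7002 to 56725 UMIs, and the deepest weigh most in these sums. Mixed cells were kept in the groups, so the sums can hold RNA of other cell types. Among the 7 WT cells was a mixed cell with fibroblast markers and 39462 UMIs. That was the median depth of the 3 WT monocytes mixed with fibroblast markers, so another of these was deeper. The only deeper WT monocytes, with 46072 and 56725 UMIs, were both among the 7. The deepest cells of the WT group thus included more than 1 mixed cell. As medians over cells F13a1 was at 127 and 341 CPM against 2304 and 1422 CPM, Apoe at 1476 and 1703 CPM against 137 and 470 CPM, and Ly6i at 428 and 629 CPM against 0 and 0. Ly6c2 was lower in both, at 505 and 1469 CPM against 1766 and 1907 CPM, by far more in the 7 WT cells than in the 26 mutant ones. The inflammatory cytokine gene Il1b stood at 1971 and 3278 CPM against 2331 and 2343 CPM, and its median over cells was 1736 and 3693 CPM against 1667 and 1519 CPM, so that no direction is given for WT.

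Some monocytes were dividing. At least 5 UMIs of the 6 cell cycle genes were found in 17 WT and 21 mutant monocytes, 21.5% (13.1 to 32.2) and 24.1% (15.6 to 34.5), a difference of 2.62 points with an interval of -10.3 to 15.2. Cycling and class II-high at once were 2 of 79 WT and 3 of 87 mutant monocytes, of which 0 and 1 had under 20 granule UMIs. The cycling cells with under 20 granule UMIs, 14 and 16, held the monocyte genes, with Chil3 at 3989 and 3545 CPM and F13a1 at 2506 and 2987 CPM. In these cells H2-Aa stood at 20.8 and 153 CPM, against 41.9 and 98.8 CPM in the monocytes of none of the groups, with medians over cells of 0 and 14.0 CPM against 0 and 60.3 CPM. Of 19 cell cycle genes 14 were compared, 3 were at least 2-fold higher in mutant and 0 lower, with a median of 0.35. Top2a, the topoisomerase of dividing cells, was at 129 and 384 CPM (1.57, 1.32 to 1.83), Nusap1, a spindle protein gene, at 39.8 and 137 CPM (1.78) and Mki67, the proliferation antigen, at 133 and 283 CPM (1.09). The share of cells past the limit of 5 UMIs did not differ beyond counting error while these transcripts were higher. The share of cells with a Top2a UMI, thinned to 5000 UMIs, was 10 of 77 and 21 of 81, a difference of 12.9 points (0.48 to 24.9), and thinned to 10000 UMIs 22.2% and 27.8%, a difference of 5.56 points (-9.21 to 19.7). In other kept cells Top2a, Nusap1 and Mki67 were higher in mutant too, by 1.15, 1.29 and 1.25.

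Chemoattractant receptors stood higher in mutant monocytes. Of 12 genes 11 were compared, all 11 had a ratio above 0, as had 2769 of all 4571 genes, 5 were at least 2-fold higher and 0 lower, with a median of 0.65. The median was 0.43 in all other kept cells, and 0.45 in the monocytes outside the class II, cycling and granule groups. C3ar1, the receptor for complement C3a, had 32 UMIs in 8 of 79 WT cells and 188 UMIs in 29 of 87 mutant cells, or 26.0 and 115 CPM and a log2 ratio of 2.15 (1.60 to 2.74). Thinned to equal depth it was found in 7.79% and 23.5% of monocytes, against 0.423% and 1.32% of endothelial cells. Cmklr1, the receptor for chemerin, was at 26.0 and 70.5 CPM (1.44). The formyl peptide receptors Fpr1 and Fpr2 were at 33.3 and 96.9 CPM (1.54) and at 70.6 and 142 CPM (1.01). Outside the class II, cycling and granule groups C3ar1 kept its direction at 2.88, and Fpr1 turned to -1.26. Ccr2 itself, a gene of the rule, was at 702 and 570 CPM (-0.30).

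Chemokine genes differed in both directions. Of 16 genes 13 were compared, 5 were at least 2-fold higher in mutant and 1 lower, with a median of 0.57. Ccl12 and Ccl7, ligands of Ccr2, went from 11.4 to 99.3 CPM (3.13) and from 20.3 to 147 CPM (2.85). They came from few cells, since 8 mutant cells held all Ccl12 UMIs and 1 of them 45.7%, and 15 held all Ccl7 UMIs and 1 of them 28.0%. Cxcl16, a chemokine tethered to the membrane, went from 59.3 to 151 CPM (1.35) with UMIs in 20 WT and 40 mutant cells. Cxcl9 and Ccl5, which draw in T cells, were at 112 and 243 CPM (1.12) and at 61.7 and 178 CPM (1.53). Ccl5 turned to -0.74 with a Ccr2 limit of 1 UMI and to -0.31 outside the class II, cycling and granule groups, where the median of the list was -0.18. Ccl4, an early inflammatory chemokine, was lower at 1321 and 649 CPM (-1.03, -1.14 to -0.91), and its relative Ccl3 stood at 421 and 240 CPM (-0.81). Cxcl2, which draws in neutrophils, was at 2491 and 2300 CPM (-0.12).

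Inflammatory mediators were mostly near the median gene. Of 16 genes 14 were compared, 4 were at least 2-fold higher in mutant and 0 lower, with a median of 0.20. The cytokine Il1b was at 1955 CPM in WT and 2267 CPM in mutant (0.21, 0.14 to 0.29). The interleukin 1 antagonist Il1rn was at 119 and 294 CPM (1.30), and Ptgs2, the prostaglandin synthase induced in inflammation, at 212 and 455 CPM (1.10). Nos2, the inducible nitric oxide synthase, was at 13.8 and 65.0 CPM (2.24), a ratio that was -0.0021 without the C1q limit. Il6 stood at 238 and 142 CPM (-0.74). The higher genes thus included Il1rn, an inhibitor of Il1b signalling, as well as Ptgs2.

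Most interferon-stimulated genes lay below the median gene but within 2-fold. Of 16 genes 12 were compared, 1 was at least 2-fold lower and 0 higher, with a median of -0.59, against -0.01 in all other kept cells. Ifit3, an antiviral effector, was at 57.6 and 22.7 CPM (-1.35, -1.96 to -0.75). Isg15, a ubiquitin-like modifier, was at 308 and 167 CPM (-0.88) and Ifitm3, which blocks viral entry, at 2435 and 1505 CPM (-0.69). Of these 12 genes 1 had a ratio above 0, against 2769 of all 4571.

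The Ifi200 family, interferon-induced genes whose products bind DNA, split further. Of 13 genes 10 were compared, 1 was higher and 3 lower, with a median of -0.82 that compares with -0.28 in other kept cells. Ifi203 was at 302 and 91.4 CPM (-1.73), Mndal at 281 and 102 CPM (-1.46) and Ifi213 at 64.9 and 28.2 CPM (-1.20). Ifi202b (ENSMUSG00000026535) went the other way, with 0 UMIs in 79 WT monocytes and 461 UMIs in 74 of 87 mutant monocytes. With the WT count of 0 set to 3 UMIs, this was 116-fold higher, a log2 ratio of 6.86, and its lower counting limit was 6.55. Among all kept cells it had 1 UMI in WT and 5067 UMIs in 1232 cells in mutant, so the difference was not confined to the monocytes. The labels give 1 strain for both libraries, and whether their genetic background differed was not tested, for Ifi202b as for the other genes that differ across the libraries. These genes are close relatives, and reads could have been split between them.

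**Figure D4:**
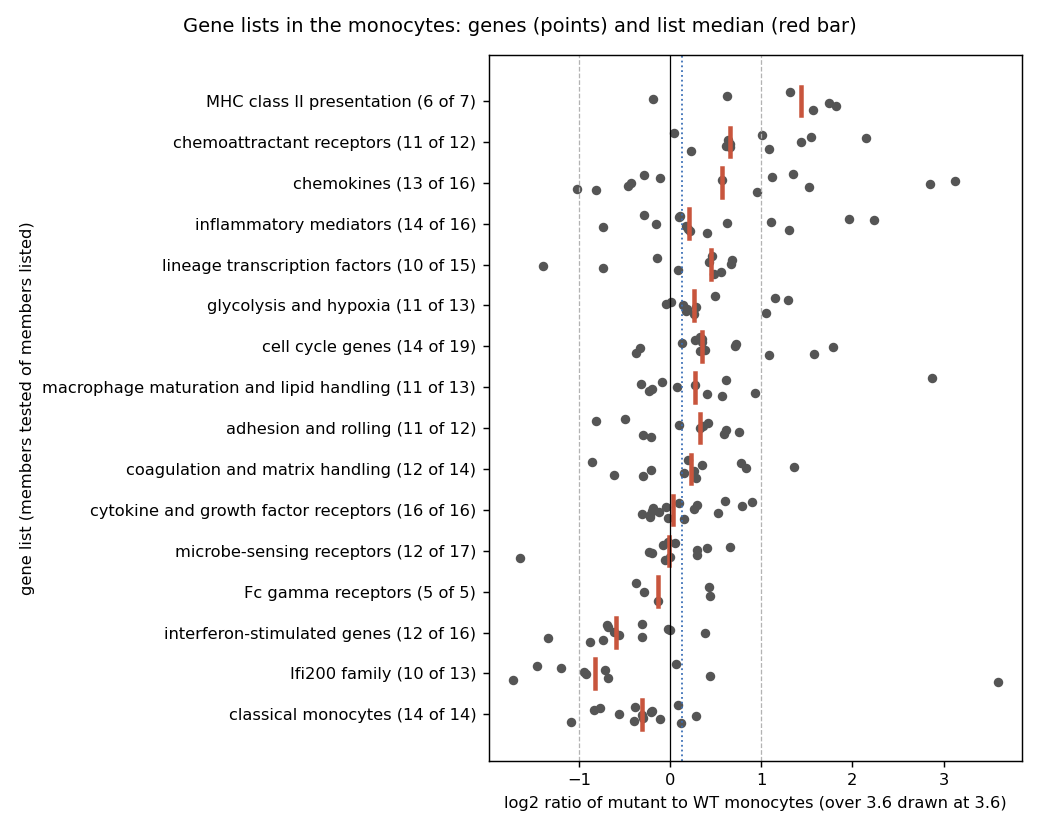
Points are genes and red bars list medians of the log2 ratio of mutant to WT monocytes, with the numbers of genes compared and listed on the y axis, dashed lines at a 2-fold difference and a dotted line at the median of all genes, 0.13. Of the lists drawn, class II presentation has the highest median at 1.44 and the Ifi200 family the lowest at -0.82, with Ifi202b drawn at the edge.

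Rpl29 also differed across the libraries, and Gm50022 and Ly6c1 did so in some populations more than in others. Rpl29, a ribosomal protein gene, had 1088 UMIs in 78 of 79 WT monocytes and 30 UMIs in 23 of 87 mutant monocytes, 883 and 18.4 CPM (-5.59). In all other kept cells the ratio was -5.35. Gm50022 was higher in mutant, with 2 UMIs in WT and 98 in mutant monocytes (ratio 5.21, 3.32 to 8.28) and a ratio of 3.02 in other cells. In B cells it had 2 and 3 UMIs and in endothelial cells 0 and 1, too few to compare. Ly6c1 (ENSMUSG00000079018), an endothelial relative of Ly6c2, had 255 UMIs in 59 WT monocytes and 6 UMIs in 4 mutant monocytes, 207 and 3.68 CPM (-5.81). In endothelial cells, which express it, it stood at 1899 and 1439 CPM (-0.40), and in progenitors at 83.3 and 4.43 CPM (-4.23). In neutrophils, which also carry Ly6c2, it stood at 60.1 and 32.1 CPM (-0.91). The difference was thus larger in monocytes and progenitors than in neutrophils or endothelium.

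The Ly6c1-201 and Ly6c2-201 transcripts of GENCODE M21 are identical at 802 of 844 aligned columns, and over their last 300 bases, where a 3' library reads, they share runs of up to 124 bases. Reads of one could therefore be given to the other, and both genes are reported as uncertain. Their promoters differ more, with 164 of 284 aligned columns identical, or 57.7%, over 250 bases upstream of 1 RefSeq start of each gene. Columns with a gap are counted in the 284, so an offset between the annotated starts would lower this figure. The 200 bases upstream of each RefSeq start (GRCm38.p6) are shown because the monocyte level of Ly6c2 and the endothelial level of Ly6c1 turn on this pair. They lie at chr15:75111972-75112171 for Ly6c2 and chr15:75048838-75049037 for Ly6c1, both on the minus strand, with the letters GAGGAAGT of a PU.1-type site in capitals.
Ly6c2: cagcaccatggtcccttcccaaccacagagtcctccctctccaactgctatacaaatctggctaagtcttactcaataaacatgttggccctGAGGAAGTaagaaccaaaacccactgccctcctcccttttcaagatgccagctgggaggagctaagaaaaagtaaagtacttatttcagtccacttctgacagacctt
Ly6c1: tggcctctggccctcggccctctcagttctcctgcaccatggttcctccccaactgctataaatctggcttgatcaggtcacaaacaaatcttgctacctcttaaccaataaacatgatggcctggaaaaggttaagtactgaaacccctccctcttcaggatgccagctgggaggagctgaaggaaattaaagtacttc
The letters begin at position -108 in Ly6c2 and are not in this Ly6c1 stretch. RefSeq gives 2 windows for each gene, and the letters are in 2 of 2 for Ly6c2 and in 1 of 2 for Ly6c1, so the pair does not differ simply by having them. On either strand they occur in 802 of 32851 windows, or 2.44%.

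Apart from the fibroblast markers, the other lists had at most 3 genes past 2-fold. All 5 fibroblast markers were at least 2-fold lower in mutant, with a median of -3.42. That median was -0.56 without the mixed cells and 1.05 outside the class II, cycling and granule groups. The classical monocyte list had 14 genes compared, 1 lower and 0 higher, with a median of -0.30. Its 1 lower gene was Plac8, a gene of infiltrating myeloid cells, at 3157 and 1478 CPM (-1.09, counted in 79 of 79 WT and 85 of 87 mutant cells), and Vcan of the rule stood at 851 and 477 CPM (-0.83). Of the lineage transcription factors 10 of 15 were compared, 0 were higher and 1 lower, with a median of 0.44. Cebpd, an acute-phase factor, was at 377 and 143 CPM (-1.40, and -1.31 in other kept cells), while Zeb2, which maintains macrophage identity, was at 2103 and 3342 CPM (0.67). For microbe-sensing receptors the figures were 12 of 17 compared, 0 higher and 1 lower, median -0.01. The lower gene was Tlr4, the receptor for bacterial endotoxin, at 94.2 and 30.0 CPM (-1.65, -2.16 to -1.15), with a ratio of -0.35 in other kept cells. Clec7a was not analysed here.

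Glycolysis and hypoxia genes had 11 of 13 compared, 3 higher and 0 lower, with a median of 0.26. Bnip3, Vegfa and Hk2, all hypoxia-responsive, were at 20.3 and 49.7 CPM (1.29), 64.1 and 143 CPM (1.16) and 98.2 and 203 CPM (1.05). Coagulation and matrix genes had 12 of 14 compared, 1 higher and 0 lower, with a median of 0.22, and the gene was Mmp14, a membrane-bound protease, at 46.3 and 119 CPM (1.36). Of the maturation and lipid handling genes 11 of 13 were compared, 1 was higher and 0 lower, with a median of 0.28. That gene was Cd36, a scavenger receptor for lipids, with 17 UMIs in 10 WT cells and 165 UMIs in 26 mutant cells, 13.8 and 101 CPM (2.87, 2.15 to 3.69). In mutant 1 cell held 21.2% of these UMIs. After thinning, a Cd36 UMI was found in 7.79% and 18.5% of monocytes, 8.24% and 12.7% of neutrophils and 78.2% and 82.2% of endothelial cells. The part of free RNA was not tested. Non-classical monocyte genes had 7 of 10 compared, 1 higher and 0 lower, median 0.65. The higher gene was Adgre4, an adhesion receptor gene, at 29.2 and 82.2 CPM (1.49), with a ratio of 2.03 in other kept cells. Adhesion genes (11 compared, median 0.33), cytokine receptors (16 compared, median 0.03), Fc gamma receptors (5 compared, median -0.13), iron handling genes (5 compared, median 0.26) and immediate early genes (11 compared, median -0.03) had 0 genes past 2-fold either way. The cytokine receptor median changes sign when the median gene is set to 0.

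Granule protein genes had 10 of 13 compared, 0 higher and 1 lower, with a median of 0.45 that was -0.17 without the mixed cells. Wfdc17, which encodes a small secreted protein with a whey acidic protein domain, was the lower gene, at 934 CPM in WT and 234 CPM in mutant (-2.00, -2.17 to -1.83). It was counted in 77 of 79 WT and 71 of 87 mutant monocytes, with a median of 11 and 3 UMIs a cell. The ratio was -1.93 in neutrophils, -1.73 in Mmp12-high macrophages and -0.66 in C1q-high macrophages. S100a8, an alarmin of neutrophils, stood at 5180 and 8124 CPM, and most of it came from the 6 WT and 12 mutant monocytes with at least 20 granule UMIs, at 37999 and 39784 CPM. In the monocytes of none of the groups it stood at 521 and 174 CPM.

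**Figure D5:**
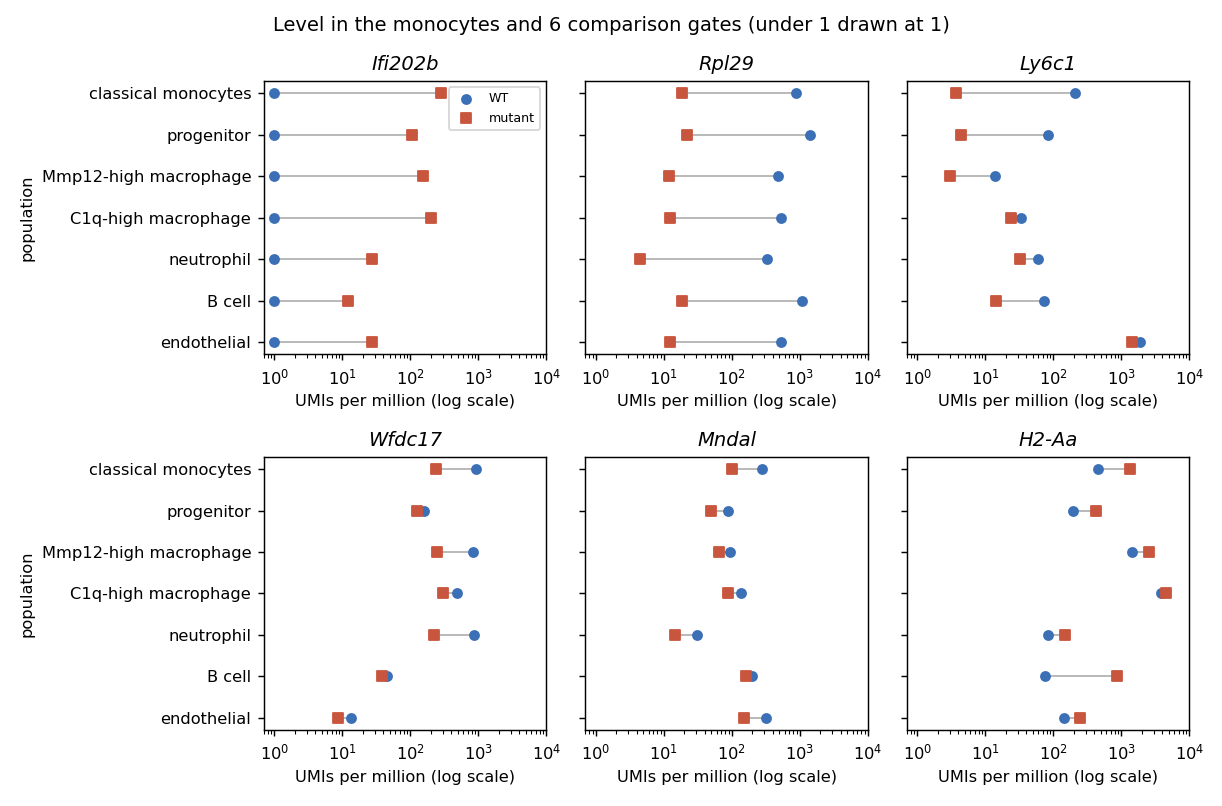
The CPM of 6 genes in the monocytes and in 6 comparison populations is drawn on a log axis, with WT as blue circles, mutant as red squares and values under 1 drawn at 1. Ifi202b and Rpl29 differ between the libraries in every population, whereas Ly6c1 is far apart in monocytes (207 and 3.68 CPM) and near in endothelial cells (1899 and 1439 CPM).

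Among the 10 genes with the highest ratios were, beside those given, Bank1 and Igkc, B cell genes, Pparg, a lipid-sensing nuclear receptor, Plekhg1, and Slc7a2, an arginine transporter. Single cells carried much of some of them, with 50.7% of mutant Igkc UMIs, 43.7% of Slc7a2, 35.1% of Bank1 and 32.7% of Pparg in 1 cell each. Plekhg1, in contrast, was found in 45 of 87 mutant cells and 4 of 79 WT cells, at 75.4 and 6.50 CPM, a ratio of 3.54 (2.51 to 4.78) that was -0.43 in other kept cells. Of the 10 genes with the lowest ratios, 8 were of fibroblasts and matrix, namely Col14a1, Aebp1, Fbln1, Apod, Serping1, Dcn, Mgp and Igfbp6. Dcn, which encodes the proteoglycan decorin, was at 494 and 7.97 CPM, with 49.8% of its WT UMIs in 1 cell. Without the mixed cells the ratio of Dcn was -0.80 and that of Mgp 0.01, so these values rested on few WT cells. Igfbp4, a gene of the progenitor list, stood at 143 and 3.68 CPM and at a ratio of 0.10 without the mixed cells.

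The monocytes were also set beside 3 related populations in the same libraries, counting genes at least 2-fold apart in the same direction in WT and in mutant. The populations were cells with at least 20 UMIs of Elane, Mpo and Prtn3 (progenitors, 70 in WT and 61 in mutant), cells with at least 10 Mmp12 UMIs (220 and 173) and cells with at least 10 C1q UMIs (265 and 347). Against progenitors 427 of 4382 genes were higher in monocytes (9.74%) and 243 lower (5.55%). Against Mmp12-high macrophages 529 of 6790 were higher (7.79%) and 443 lower (6.52%). Against C1q-high macrophages 139 of 6534 were higher (2.13%) and 250 lower (3.83%). By this count the C1q-high macrophages differed in the fewest genes, with the caution that the populations differ in depth and were cut from the same measurements. The genes of the rule are not findings here.

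Compared with progenitors, monocytes were higher in Ifi205 (90.9 and 123 CPM against 4.74 and 6.21 CPM), in Fcgr1, the high-affinity IgG receptor (128 and 117 CPM against 19.5 and 11.5 CPM), and in 7 of 10 compared interferon-stimulated genes. They were lower in Ctsg, the granule protease cathepsin G (12.2 and 9.81 CPM against 1509 and 1170 CPM), in Ms4a3 of the progenitor list and in 9 of 18 compared cell cycle genes. Furthest below were the basophil protease genes Prss34 and Mcpt8, and 3 of 3 compared mast cell and basophil genes were lower. The progenitor population held Prss34 at 1208 and 1105 CPM and Mcpt8 at 344 and 1469 CPM, so it carried basophil transcripts. Compared with Mmp12-high macrophages they were higher in Plac8 (3157 and 1478 CPM against 85.2 and 117 CPM) and Ccl2, and in 10 of 10 compared neutrophil genes, S100a8 and S100a9 among them. For the neutrophil genes this rested largely on the mixed cells, without which their sum in monocytes was 2025 and 1723 CPM, from 16472 and 23868 CPM. In Mmp12-high macrophages S100a8 stood at 1314 and 2879 CPM and S100a9 at 1251 and 3189 CPM, in mutant each above that sum. In the monocytes of none of the groups S100a8 stood at 521 and 174 CPM. Monocytes were lower in Lpl, the lipoprotein lipase (10.6 and 38.0 CPM against 1141 and 1371 CPM), and in 11 of 13 compared maturation genes. Compared with C1q-high macrophages they were higher in Il6 (238 and 142 CPM against 30.9 and 18.3 CPM) and Ly6c2 (1515 and 1650 CPM against 290 and 352 CPM). They were lower in the chemokine Ccl8 (9.74 and 15.9 CPM against 340 and 663 CPM), the mannose receptor Mrc1 (8.12 and 19.6 CPM against 310 and 258 CPM) and in 7 of 7 compared class II genes. H2-Aa stood at 197 and 417 CPM in progenitors, 456 and 1348 CPM in monocytes, 1440 and 2500 CPM in Mmp12-high and 3792 and 4446 CPM in C1q-high macrophages. By summed H2-Aa the monocytes thus lay between progenitors and macrophages in each library. The monocytes of none of the class II, cycling or granule groups stood at 41.9 and 98.8 CPM, below the progenitors. The order is therefore one of sums that include the class II-high cells. Other genes did not follow this order, since F13a1 and Ly6c2 were higher in monocytes than in progenitors or either macrophage population. The mutant to WT ratio of H2-Aa was 1.08, 1.56, 0.80 and 0.23 in the same order, and 3.52 in B cells.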

How the data were processed

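The authors deposited 1 matrix of raw UMI counts per library (32285 genes, mouse), with 53517206 counts in WT and 62446987 in mutant; the submitters' processing notes name Cell Ranger 7.0.1 and mm10. Droplets with at least 500 genes and under 10% mitochondrial counts were kept, 4352 of 5709 in WT and 5757 of 7846 in mutant. The monocyte rule and all gene lists were chosen with earlier results of these data known. Counts were summed over the monocytes of a library and scaled to 1000000 (CPM). Genes with at least 100 UMIs over both libraries were compared by ratio, with conditional exact binomial intervals; a gene was called at 2-fold. Shares had Clopper-Pearson intervals and their differences Newcombe intervals, at 95%. With 1 library a condition there was no test. Genes at 0 were set at 3 UMIs. Named were the genes of the rule, markers and lists, the 10 highest and 10 lowest ratios, the 10 genes furthest from each comparison population, and Ly6c1. Shares described as thinned were taken after drawing 5000 UMIs from each cell, unless another depth is given. Other counts and shares of cells with a UMI were not thinned. Alternatives changed the cell filter, the terms of the rule, the scaling, the minimum and the members, with doublets ranked by Scrublet (scanpy 1.11.5). The ratio and interval code was tested on simulated data. Promoters are RefSeq windows (GRCm38.p6), aligned with Biopython 1.88. Python 3.11.15, numpy 2.4.6, scipy 1.17.1, pandas 2.3.3 and matplotlib 3.10.9 were used. Some genes named by this rule are not reported here.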

Additional observations from a re-analysis of the deposited data

Results flagged for a closer look

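Cd36 was at 13.8 CPM in WT and 101 CPM in mutant monocytes, a log2 ratio of 2.87 (2.15 to 3.69), while in all other kept cells its ratio was -0.59. The directions were opposite, and the difference between the monocytes and the other cells was not tested. The ratio in other cells also takes in their make-up, since endothelial cells were 1132 of 4352 kept cells in WT and 575 of 5757 in mutant. After thinning, 78.2% and 82.2% of endothelial cells and 8.24% and 12.7% of neutrophils had a Cd36 UMI, higher in mutant in both. The part of cell make-up in the ratio of -0.59 was not tested. Outside the cell filter, 1 WT barcode and 0 mutant barcodes met the gene terms of the monocyte rule.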

How the results depend on the processing

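No paired analysis was possible because each condition had 1 library. The depth of 79 and 87 cells limits calls to genes with many UMIs, and the spread between mice is unknown. Against the main share difference of -0.30 points, the Ptprc denominator gave -2.36. Against 213 genes higher and 116 lower in mutant, a minimum of 50 UMIs gave 354 and 225, a minimum of 300 gave 69 and 46, and the median set to 0 gave 139 and 175. Lower genes were 77 without the highest Scrublet scores and 75 without the 5% of monocytes with most UMIs. In alternatives chosen after seeing the data, the lower genes were 70 without mixed cells, and 66 genes were higher and 68 lower outside the class II, cycling and granule groups. The cause was not tested; fewer cells or genes enter some of these. Against populations, a minimum of 300 UMIs gave 240 higher and 78 lower than progenitors, 276 higher than Mmp12-high and 73 higher and 137 lower than C1q-high macrophages. A minimum of 50 gave 440 lower than progenitors and 209 higher than C1q-high macrophages. The centred median gave 348 higher than Mmp12-high macrophages, and dropping mixed cells 385 lower than C1q-high macrophages. Ratios that turned sign were mostly of fibroblast genes. Col1a1 and Col1a2 became 1.94 and 1.70 without the highest Scrublet scores, 1.50 and 0.66 with cells weighted equally, 2.09 and 1.90 without the deepest 5%, and 2.94 and 3.66 outside the groups. Without the deepest 5%, Dcn was 0.25, Col3a1 0.89, Apod 1.92 and Mgp 0.59, and outside the groups Dcn was 1.05. Without mixed cells Igfbp4 was 0.10, Col1a2 0.13 and Mgp 0.011. Ccl5 was -0.74 with a Ccr2 limit of 1 UMI and -0.31 outside the groups, where Fpr1 was -1.26, and Nos2 was -0.0021 without the C1q limit. Of 258 named genes, 257 stayed within their interval under the stricter cell filter, 189 with equal weights and 161 without the C1q limit, where 62 of the 213 higher and 70 of the 116 lower calls were shared. Outside the groups 118 of 244 stayed, 121 moved and 5 turned sign.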
